A study of Mus musculus with 8 samples.

Results

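The genes of blood coagulation and fibrinolysis were followed in liver RNA of Fah-/- mice: clotting factors, their inhibitors, and the proteases and inhibitors that dissolve fibrin. They were listed by symbol, 34 genes in all, with no threshold on a measured value, by a choice made with earlier results of these data known. Of these, 33 had a row in the table of 22504 Ensembl gene identifiers and 31 reached the floor set here, an FPKM of 1 or more in 2 or more of the 8 samples, as did 11007 genes in all. F13a1, the transglutaminase subunit of factor XIII, and Plau, the urokinase-type plasminogen activator, were listed but stayed under it, and Klkb1, plasma prekallikrein, was not analysed here. FPKM is a fragment count divided by gene length and library size, a scale meant for setting levels of different genes side by side. Alb and Gapdh below show that a value listed here may not give a gene's level, so rankings concern listed values only.

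Mice of all 3 groups were Fah-/- on the strain background 129S4 and thus lacked fumarylacetoacetate hydrolase, the last enzyme of tyrosine breakdown. NTBC, a drug that blocks the pathway upstream and keeps such mice healthy, was given in drinking water at 7.5 mg/L as the standard dose. In the C 8w group (liver, n = 3), the dose was cut to 2.5% of standard for 8 weeks, the regimen called moderate chronic liver injury. The C 12w group (n = 2) had the same reduced dose for 12 weeks, and its tissue was labelled tumor. In the C 8w + A 4w group (liver, n = 3), 8 weeks at the reduced dose were followed by 4 weeks with no NTBC, that is, severe acute liver injury. The C 12w samples are called tumors below and the C 8w + A 4w samples severe injury. Tumors differ from C 8w in tissue label and weeks of injury, and from severe injury in tissue label and regimen. These cannot be told apart in the comparisons below. The comparisons ask how the genes differed between continued moderate injury with tumors and severe injury added after moderate injury. Mice on the full NTBC dose were not analysed here, the ages of the mice are not given in the sources used here, and the study describes the samples as individual animals, which their labels do not number, so p-values measure the spread between these samples.

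Clotting starts when tissue factor meets factor VII, or when factor XII is activated on a surface, and runs through a chain of serine proteases to thrombin, which turns fibrinogen into fibrin. Antithrombin, heparin cofactor II, the protein C system and protein Z restrain the chain, and plasmin, made from plasminogen by tissue-type or urokinase-type activator, dissolves the clot. Hepatocytes make most of these plasma proteins, and endothelial cells supply several others, among them von Willebrand factor, factor VIII, thrombomodulin and tissue-type plasminogen activator.

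The samples carry several features that bear on every value below. C 8w and tumor samples share one series of sample codes and severe injury samples another, so series and group cannot be told apart in either comparison with severe injury. Albumin (Alb) was listed at 0 in the 5 C 8w and tumor samples and at an FPKM of 12946 to 16950 after severe injury, and Gapdh was listed at 0.0980 to 0.247 and at 68.2 to 99.9. Genes under an FPKM of 1 in every C 8w and tumor sample held 8.70% to 9.34% of the summed FPKM after severe injury and 0.195% to 0.296% in the other samples. Fah itself was listed at 15.6 to 16.8 in C 8w, 13.5 to 14.4 in tumors and 5.02 to 6.36 after severe injury, a per-gene value that does not separate deleted from remaining exons. The label text on RNA extraction names retinas, while the tissue labels say liver or tumor. Of 12 retina markers, 1 reached the floor (Gnat1, at 1.95 to 3.57), whereas 15 hepatocyte markers other than Alb summed to 15998 to 29790. FPKM keeps no read counts, so the depth of the samples is unknown.

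The largest body of change was a fall of hepatocyte-made clotting factors and inhibitors after severe injury, beside a rise of Plat, Plaur, Thbd and Serpina5. Against C 8w, 17 of the 31 members fell and 4 rose in limma on log2(FPKM + 1) with Benjamini-Hochberg adjustment over all genes tested (adjusted p under 0.05, two-sided). The corresponding shares of all 11007 genes were 13.5% lower and 25.6% higher. Plat and Plaur were under an FPKM of 1 in all C 8w samples and reached the floor only through the groups where they were high. The counts of higher members against C 8w, here and in tumors, therefore say nothing particular about them. The median difference was -0.74 over the members and 0.13 over all genes, on the log2(FPKM + 1) scale, which understates the change of genes at low FPKM. Against tumors, 17 members fell and 4 rose, beside 16.1% and 18.1% of all genes, with Cpb2 in place of Plaur among the 4 and Kng2 in place of Hrg among the 17, and with medians of -0.83 over the members and 0.01 over all genes. Between tumors and C 8w, within one series of codes, 6 members were higher and 0 lower, beside 13.1% and 6.90% of all genes, with medians of 0.20 and 0.12. At an unadjusted p under 0.05, limma had 10 of the 31 members in that comparison, 3 of them lower (F8, F13b and Hrg). At the same limit it had 4124 of all 11007 genes, so the members did not stand out there. The comparisons share their samples and were not compared with each other.

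The balance of calls over all genes depended on how samples were scaled, while the members' medians against C 8w kept their sign. Of all calls between severe injury and C 8w, 65.4% were higher as deposited, 51.8% after median-ratio scaling, 43.8% after quantile scaling, 55.5% after scaling to equal totals and 74.3% after scaling to equal totals over genes with at most 2% of shared sequence, and the members' median ran from -0.88 to -0.63 over the scalings. Between tumors and C 8w the share was 65.4% as deposited, 51.6% after median-ratio scaling, 47.2% after quantile scaling, and 73.5% and 75.2% after scaling to equal totals over all genes and over those of little shared sequence. Between severe injury and tumors it was 52.9% as deposited, 50.05% after median-ratio scaling, 47.6% after quantile scaling, and 36.9% and 53.7% after the same scalings to equal totals.

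**Figure D1:**
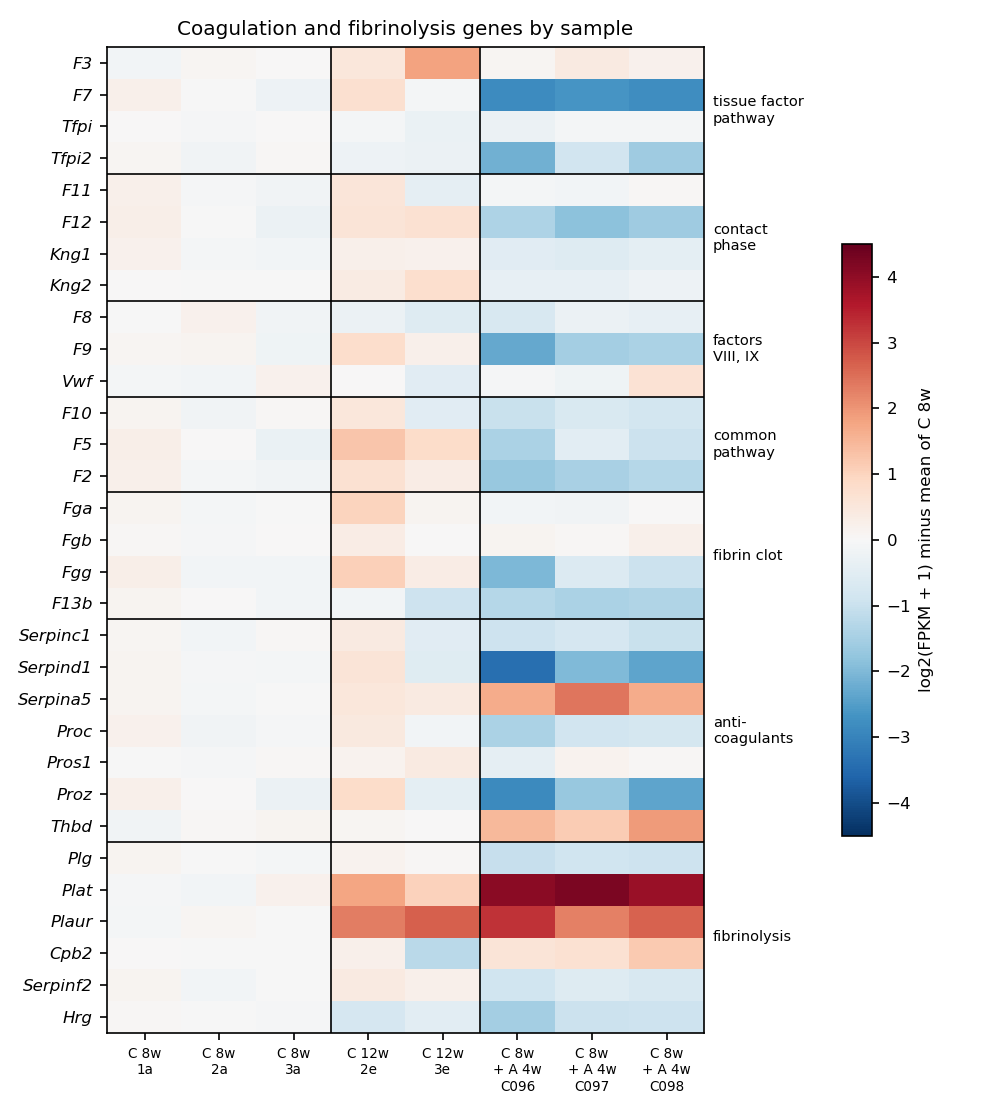
Each cell shows log2(FPKM + 1) of one gene in one sample minus the mean of the 3 C 8w samples, for the 31 members tested, with genes in rows by role and the 8 samples in columns by group (sample codes under the group names). Blue (lower) fills most rows of C 8w + A 4w, with red (higher) in Plat, Plaur, Thbd and Serpina5, and the C 12w columns are mostly pale, with the strongest red in Plaur.

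**Figure D2:**
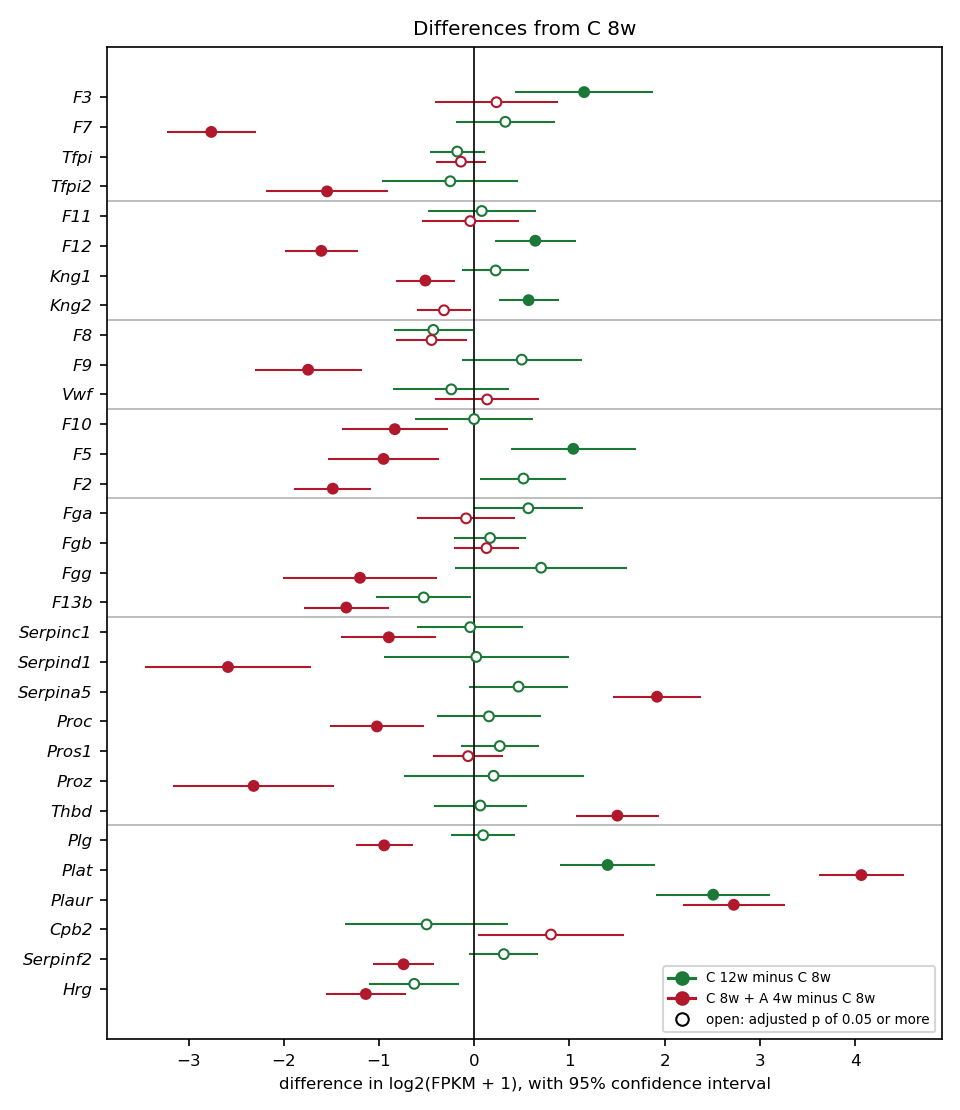
Horizontal axis, difference in log2(FPKM + 1) from C 8w with its 95% confidence interval from limma, for C 12w (green) and C 8w + A 4w (red), with genes in rows by role and filled points for an adjusted p under 0.05. Plat at 4.07 and F7 at -2.76 are the extremes of C 8w + A 4w, and Plaur at 2.51 is the highest of C 12w.

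In the pathway that starts clotting, F7 fell after severe injury and F3 was higher in tumors. F7 encodes factor VII, the vitamin K dependent protease that binds tissue factor. Its FPKM was 17.8, 15.02 and 12.9 in C 8w, 25.7 and 14.3 in tumors, and 1.29, 1.54 and 1.31 after severe injury. The severe injury samples lay far below all others, and tumors overlapped C 8w. The mean of C 8w was 11.1-fold that of severe injury (limma log2 difference -2.76, SE 0.20, adjusted p = 2.39e-05), and the difference from tumors was -3.09 (SE 0.23, adjusted p = 2.67e-05).

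Tissue factor itself, F3, had an FPKM of 0.995, 1.31 and 1.16 in C 8w, of 2.07 and 6.47 in tumors, and of 1.30, 1.82 and 1.49 after severe injury. Both tumor samples were above the rest, one of them by much more than the other. F3 was 1.15 higher in tumors than in C 8w (SE 0.32, limma adjusted p = 0.0363), but the difference ran from 0.51 without tumor replicate 3 to 1.80 without tumor replicate 2 and the call was lost in 8 of 19 alternatives. It did not pass against C 8w after severe injury (0.23, 95% confidence interval -0.41 to 0.88). Tfpi2, a Kunitz-type protease inhibitor related to tissue factor pathway inhibitor, was at 43.4, 36.4 and 41.4 in C 8w, 33.9 and 33.4 in tumors, and 8.21, 21.7 and 12.5 after severe injury. It fell after severe injury by 1.55 against C 8w (SE 0.28, limma adjusted p = 0.00332), with no overlap between these groups. Tfpi, the main inhibitor of the tissue factor and factor VII complex, lay between 0.710 and 1.13 in all 8 samples and passed in no comparison.

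Among the contact phase genes, F12 moved most, while F11 stayed between 16.3 and 32.2 in all samples. F12, the protease activated on negatively charged surfaces, had an FPKM of 95.1, 77.6 and 66.2 in C 8w, 119 and 128 in tumors, and 29.8, 21.4 and 25.1 after severe injury. The 3 groups did not overlap. F12 was 0.64 higher in tumors than in C 8w (SE 0.19, limma adjusted p = 0.0450), and after severe injury it fell by 1.61 against C 8w (SE 0.17, adjusted p = 1.88e-04) and by 2.25 against tumors (SE 0.19, adjusted p = 5.53e-05). F11, the factor XI protease that passes the signal to factor IX, differed by -0.04 between severe injury and C 8w, with a 95% confidence interval of -0.55 to 0.47.

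The kininogens, which carry factor XI and prekallikrein and release bradykinin, come from a pair of neighbouring gene copies, Kng1 and Kng2. Kng1 had an FPKM of 412, 338 and 333 in C 8w, 425 and 416 in tumors, and 249.9, 242 and 263 after severe injury. Kng2 had an FPKM of 55.3, 54.8 and 54.4 in C 8w, 71.9 and 93.2 in tumors, and 42.3, 42.5 and 46.7 after severe injury. For both genes the tumor samples were highest and the severe injury samples lowest, with no overlap. Kng2 was 0.57 higher in tumors than in C 8w (SE 0.14, limma adjusted p = 0.0242), and Kng1 fell by 0.51 after severe injury against C 8w, where Kng2 missed the threshold (-0.32, limma adjusted p = 0.0704). Since 17.2% of the 50-base windows of Kng1 and 19.4% of those of Kng2 occur in another gene, their reads may have been divided between them in counting.

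In the complex of factors VIII and IX, F9 fell and neither F8 nor Vwf passed. F9, the vitamin K dependent protease missing in haemophilia B, was at 38.8, 39.7 and 32.2 in C 8w, 63.8 and 43.0 in tumors, and 6.73, 12.0 and 13.2 after severe injury. All severe injury samples were below all others. F9 fell there by 1.74 against C 8w (SE 0.25, limma adjusted p = 9.60e-04) and by 2.24 against tumors (SE 0.27, adjusted p = 5.34e-04). F8, its cofactor, was at 1.61 to 2.28 in C 8w, 0.927 and 1.40 in tumors and 0.767 to 1.42 after severe injury, and its difference of -0.45 between severe injury and C 8w had a limma adjusted p of 0.0558. Vwf, the carrier of factor VIII and tether of platelets, was at 0.428 to 2.16 over all samples, and its groups overlapped.

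All 3 genes of the common pathway fell after severe injury. F2, prothrombin, was at 385, 309 and 293 in C 8w, 528 and 414 in tumors, and 99.3, 118 and 133 after severe injury. Its groups did not overlap, and it fell by 1.49 against C 8w and differed by -2.002 from tumors (SE 0.20, limma adjusted p = 1.59e-04 for the latter). F5, the cofactor of factor Xa, was at 28.5, 24.2 and 18.998 in C 8w, 58.1 and 42.3 in tumors, and 8.11, 16.8 and 11.6 after severe injury.

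The groups of F5 did not overlap either. It was 1.04 higher in tumors than in C 8w (SE 0.29, limma adjusted p = 0.0372), 0.95 lower after severe injury than in C 8w, and 1.99 lower than in tumors (SE 0.29, adjusted p = 0.00123). F10, the protease that activates prothrombin, was at 136, 113 and 130.5 in C 8w, 179.9 and 88.0 in tumors, and 62.3, 78.0 and 71.1 after severe injury. It fell by 0.83 against C 8w, with the tumor samples on either side of the C 8w range.

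Of the 3 fibrinogen chains, which a liver cell assembles in equal numbers into one hexamer, Fgg fell after severe injury, and Fga and Fgb did not pass the test. Fga was at 632, 544 and 579 in C 8w, 1173 and 639 in tumors, and 531, 526 and 595 after severe injury. Fgb was at 627, 574 and 608 in C 8w, 753 and 607 in tumors, and 653, 626 and 701 after severe injury. Fgg was at 510.2, 390.4 and 394 in C 8w, 891 and 545 in tumors, and 105, 280.2 and 217 after severe injury.

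For Fga and Fgb the C 8w and severe injury samples overlapped, whereas every severe injury value of Fgg was below every C 8w value. The limma differences between these groups were -0.09 for Fga (95% confidence interval -0.60 to 0.43), 0.13 for Fgb (-0.21 to 0.47) and -1.20 for Fgg (-2.01 to -0.39), and Fgg fell by 1.90 against tumors (SE 0.40, adjusted p = 0.00715). A ratio between genes within a sample cannot be changed by a single scaling factor per sample. Here and in the ratios below, it keeps any difference between the code series that is confined to single genes, as for Alb and Gapdh. The ratio of Fgg to Fgb was 0.714 ± 0.088 in C 8w (SD, n = 3), 1.04 ± 0.20 in tumors (SD, n = 2) and 0.306 ± 0.143 after severe injury (SD, n = 3), from 0.161 to 0.448 in the last. The ratio of Fga to Fgb was 0.969 ± 0.034, 1.30 ± 0.36 and 0.835 ± 0.019 in the same order. Of the 50-base windows of Fgg, 3.23% occur in another gene, and no window of Fga or Fgb does. The fall of Fgg also depended on single samples: it passed in 12 of 18 alternatives, and without severe injury replicate 1 the difference from C 8w was -0.79.

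The fibrinogen genes are direct neighbours on chromosome 3 in the order Fgg, Fga, Fgb, with 0 coding genes between them in RefSeq, so the sequences before their starts are shown to set the values of adjacent genes beside their upstream letters. RefSeq promoters (assembly GRCm38.p6, 250 bases before the start, 5′ to 3′ on the gene's strand) matched 25 of the 31 members. Capitals mark matches, on either strand, to the hepatocyte factor motifs searched: HNF1 (GTTAATNAT), C/EBP (TTGCNNAA), HNF4 (CAAAGTCCA), forkhead (TGTTTAC) and the interleukin-6 response element (CTGGGAA). Fga lies at chr3:83025903-83026152 (+), Fgb at chr3:83049864-83050113 (-) and Fgg at chr3:83007474-83007723 (+), the coordinates being those of the sequences printed.
Fga: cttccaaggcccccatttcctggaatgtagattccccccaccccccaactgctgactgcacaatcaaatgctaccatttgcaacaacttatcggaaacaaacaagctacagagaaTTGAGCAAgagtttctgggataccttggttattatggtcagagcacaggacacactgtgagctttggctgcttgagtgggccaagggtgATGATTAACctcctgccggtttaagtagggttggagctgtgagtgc
Fgb: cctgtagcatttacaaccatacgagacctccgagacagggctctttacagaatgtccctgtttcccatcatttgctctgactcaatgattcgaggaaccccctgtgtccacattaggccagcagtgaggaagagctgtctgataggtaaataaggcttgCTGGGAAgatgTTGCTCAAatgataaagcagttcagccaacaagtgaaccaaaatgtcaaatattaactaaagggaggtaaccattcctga
Fgg: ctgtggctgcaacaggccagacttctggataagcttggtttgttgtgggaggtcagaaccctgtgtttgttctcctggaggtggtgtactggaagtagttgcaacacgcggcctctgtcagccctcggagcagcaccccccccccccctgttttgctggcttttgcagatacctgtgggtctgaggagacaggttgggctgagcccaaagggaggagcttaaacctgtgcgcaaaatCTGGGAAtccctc
Fga held an HNF1 match 46 bases before its start and a C/EBP match 135 bases before it, Fgb a C/EBP match at 80 and an interleukin-6 match at 91, and Fgg an interleukin-6 match at 13. Over all 32851 promoters of this length, 0.737% held the HNF1 motif, 9.56% the C/EBP motif, 0.384% the HNF4 motif, 3.17% the forkhead motif and 9.10% the interleukin-6 motif. Among the 25 members with a promoter the counts were 2 for HNF1 (F13b and Fga), 8 for C/EBP, 0 for HNF4, 1 for forkhead (F11) and 5 for interleukin-6. Of 14 such members that fell against C 8w after severe injury, 1 held the HNF1 motif, 2 the C/EBP motif and 3 the interleukin-6 motif. A match describes letters only.

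F13b, the carrier subunit of the factor XIII that crosslinks fibrin, was at 88.7, 82.5 and 74.3 in C 8w, 74.5 and 42.2 in tumors, and 33.3, 29.8 and 31.7 after severe injury. Its severe injury samples were the lowest and close together, and it fell by 1.34 against C 8w. F13a1, the catalytic subunit, was under 0.48 in every sample and was not tested.

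Another run of adjacent members lies on chromosome 8, where F7, F10 and Proz follow each other with 0 coding genes between them in RefSeq. The ratio of F7 to F10 was 0.121 ± 0.019 in C 8w (SD, n = 3), 0.153 ± 0.014 in tumors (SD, n = 2) and 0.020 ± 0.001 after severe injury (SD, n = 3). The ratio of Proz to F10 was 0.420 ± 0.073, 0.481 ± 0.057 and 0.143 ± 0.051 in the same order. In both ratios every severe injury sample lay below every other sample. On chromosome 16, Hrg, Kng2 and Kng1 are neighbours in the same sense, and their limma differences between severe injury and C 8w were -1.14, -0.32 and -0.51.

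**Figure D3:**
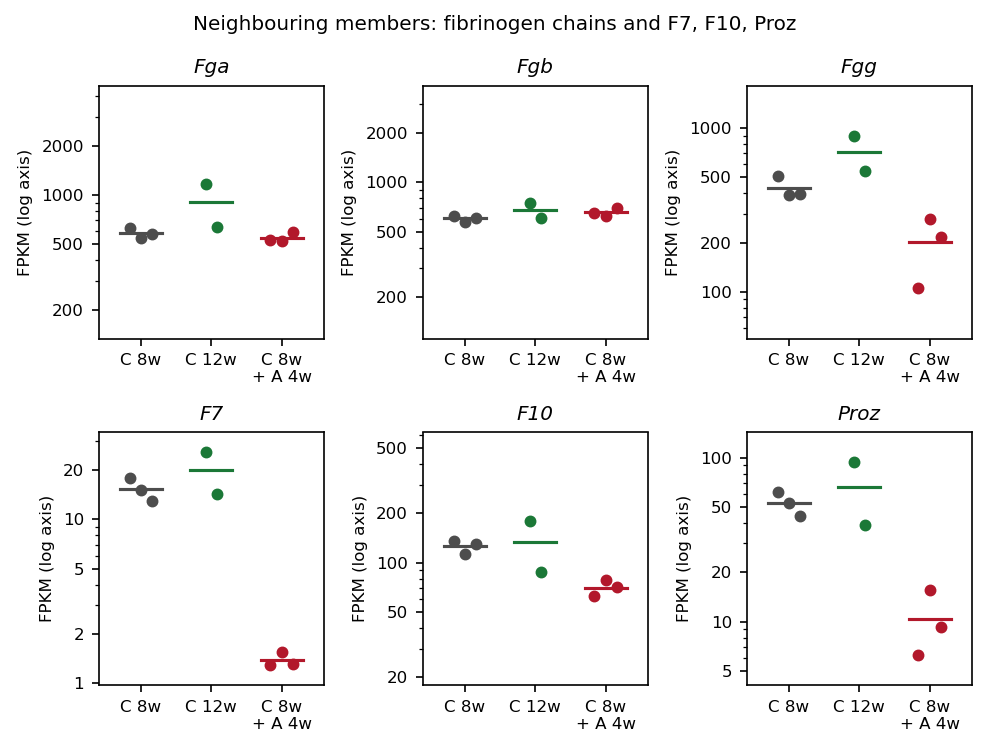
FPKM (log axis of equal span in each panel) of the fibrinogen chains Fga, Fgb and Fgg and of the neighbours F7, F10 and Proz, with a point for each sample and a line at the group mean. Fgg, F7, F10 and Proz lie lower after severe injury (C 8w + A 4w) than at C 8w without overlap, and Fga and Fgb overlap between these groups.

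Of 7 anticoagulants, 4 fell after severe injury against C 8w, 2 rose and 1, Pros1, did not pass, beside 13.5% of all genes lower and 25.6% higher. Serpind1, heparin cofactor II, which inhibits thrombin, was at 183, 162 and 159 in C 8w, 251 and 115 in tumors, and 15.1, 41.7 and 31.2 after severe injury. Proz, the vitamin K dependent cofactor of an inhibitor of factor Xa, was at 61.4, 53.1 and 43.9 in C 8w, 93.8 and 38.8 in tumors, and 6.24, 15.5 and 9.24 after severe injury. For both genes the severe injury samples were lowest, with replicate 1 the lowest of these, and the tumor samples lay on either side of C 8w.

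Serpind1 fell by 2.59 against C 8w (SE 0.38, limma adjusted p = 0.00118) and by 2.61 against tumors (SE 0.43, adjusted p = 0.00234). Proz fell by 2.32 against C 8w (SE 0.37, limma adjusted p = 0.00176) and differed by -2.52 from tumors (SE 0.41, adjusted p = 0.00239). Antithrombin, Serpinc1, which inhibits thrombin and factor Xa, was at 196, 169 and 191 in C 8w, 247 and 131 in tumors, and 96.5, 108 and 92.7 after severe injury. It fell by 0.90 against C 8w, less than Serpind1, and the ratio of Serpind1 to Serpinc1 was 0.907 ± 0.066, 0.949 ± 0.095 and 0.293 ± 0.121 in C 8w, tumors and severe injury (SD, n = 3, 2 and 3). For Serpinc1 33.6% of the 50-base windows occur in another gene, so its values are less certain.

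In the protein C system Proc fell and Thbd rose after severe injury. Proc, protein C, which cleaves factors Va and VIIIa, was at 149.99, 117 and 127 in C 8w, 176 and 121 in tumors, and 48.1, 71.6 and 75.7 after severe injury, and fell by 1.02 against C 8w without overlap. Thbd, thrombomodulin, the surface receptor that lets thrombin activate protein C, was at 1.07, 1.41 and 1.57 in C 8w, 1.52 and 1.38 in tumors, and 5.51, 4.12 and 7.77 after severe injury. All 3 severe injury samples of Thbd exceeded all others, and it rose by 1.503 against C 8w (SE 0.19, limma adjusted p = 5.45e-04).

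Serpina5, the protein C inhibitor, was at 1.28, 0.952 and 1.05 in C 8w, 1.98 and 1.79 in tumors, and 5.58, 10.2 and 5.69 after severe injury. Its groups did not overlap, and it rose by 1.92 against C 8w (SE 0.20, limma adjusted p = 1.95e-04) and by 1.45 against tumors (SE 0.23, adjusted p = 0.00183). Pros1, protein S, the cofactor of protein C, was at 7.24 to 13.5 over all samples, and its difference between severe injury and C 8w was -0.06 with a 95% confidence interval of -0.43 to 0.30.

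In fibrinolysis, Plat and Plaur rose while Plg, Serpinf2 and Hrg fell after severe injury. Plat, tissue-type plasminogen activator, was at 0.205, 0.141 and 0.444 in C 8w, 3.25 and 1.59 in tumors, and 20.1, 22.9 and 17.5 after severe injury. The 3 groups followed each other without overlap. The mean of Plat was 76.5-fold that of C 8w after severe injury (limma log2 difference 4.07, SE 0.20, adjusted p = 1.34e-06) and 9.19-fold in tumors (1.40, SE 0.22, adjusted p = 0.00487), and severe injury exceeded tumors by 2.66 (SE 0.22, adjusted p = 5.06e-05). Plat and Plaur were under an FPKM of 1 in all C 8w samples and reached the floor only through the other groups.

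Plaur, the cell surface receptor of urokinase, was at 0.156, 0.318 and 0.221 in C 8w, 5.11 and 7.02 in tumors, and 10.7, 4.89 and 6.79 after severe injury. Both later groups were far above C 8w and overlapped each other. It was higher by 2.51 in tumors (SE 0.26, limma adjusted p = 0.00103) and by 2.73 after severe injury (SE 0.23, adjusted p = 5.99e-05) than in C 8w, and the difference between severe injury and tumors was 0.22 with a 95% confidence interval of -0.38 to 0.82. Plau, the urokinase that Plaur binds, was at 0.165 to 0.221 in C 8w, 0.617 and 0.916 in tumors and 0.0385 to 0.354 after severe injury, under the floor in every sample.

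Plg, plasminogen, the precursor of plasmin, was at 512, 471 and 442 in C 8w, 523 and 488 in tumors, and 232, 254 and 251 after severe injury. Serpinf2, the plasmin inhibitor alpha-2-antiplasmin, was at 275, 232 and 249.955 in C 8w, 334 and 292 in tumors, and 133, 167 and 152 after severe injury. Hrg, histidine-rich glycoprotein, which binds plasminogen and heparin, was at 555, 533 and 517 in C 8w, 313 and 380.3 in tumors, and 187, 275 and 277 after severe injury. All 3 genes were lower in every severe injury sample than in every C 8w sample, by 0.95 for Plg, 0.74 for Serpinf2 and 1.14 for Hrg on the log2 scale. Both tumor samples of Hrg also lay below C 8w (-0.63), but this missed the threshold (limma adjusted p = 0.0623). Of the windows of Plg, 10.2% occur in another gene.

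Cpb2, the carboxypeptidase that protects fibrin from plasmin, had its highest values after severe injury. It was at 268, 264 and 264 in C 8w, 311 and 113 in tumors, and 397, 425 and 594 after severe injury. Every severe injury sample was above every other sample, but the difference of 0.81 from C 8w missed the threshold (limma adjusted p = 0.0888), and Cpb2 passed only against tumors (1.31, adjusted p = 0.0281). The ratio of Cpb2 to Plg was 0.561 ± 0.037 in C 8w (SD, n = 3), 0.413 ± 0.257 in tumors (SD, n = 2) and 1.92 ± 0.39 after severe injury (SD, n = 3).

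**Figure D4:**
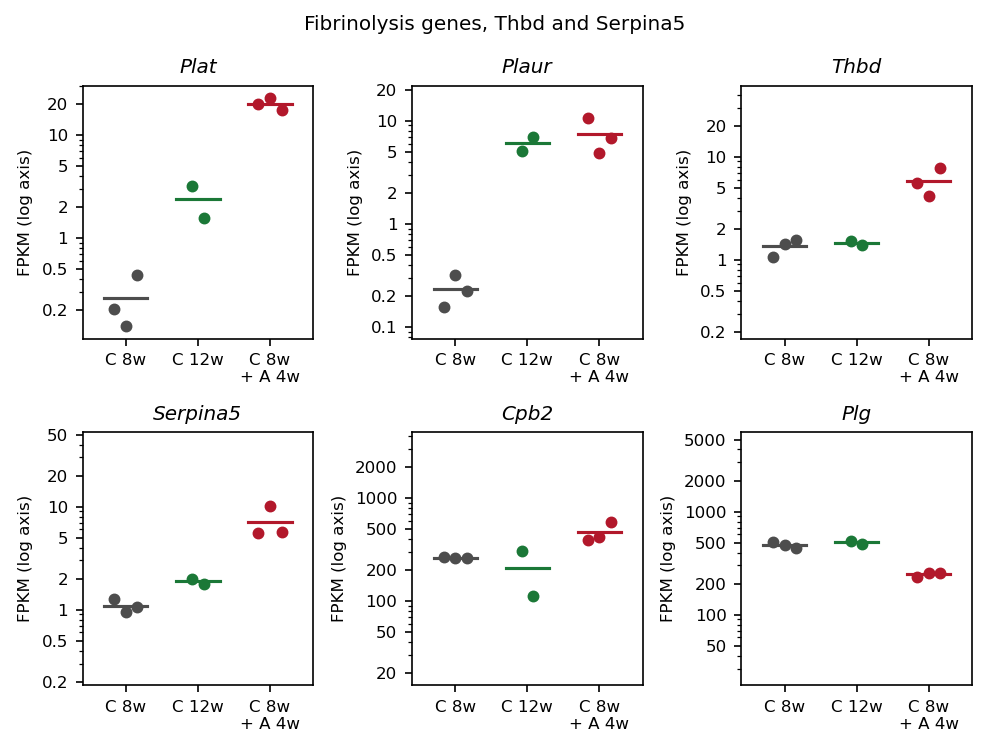
FPKM (log axis of equal span in each panel) of Plat, Plaur, Thbd, Serpina5, Cpb2 and Plg, with a point for each sample and a line at the group mean. Plat climbs from C 8w over C 12w to C 8w + A 4w, Plaur is raised in both later groups, Thbd and Serpina5 are highest in C 8w + A 4w, and Plg is lowest there.

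The members can also be read by the cell listed as making them. This source was assigned beforehand and not measured in this bulk tissue. Of 22 tested members made by hepatocytes, 16 fell against C 8w and 0 rose in limma, with a median of -0.95. At an unadjusted p under 0.05 limma had 18 of them, beside 5414 of all 11007 genes. Among these 18, Cpb2, at 0.81, alone had a positive difference. Of 9 made mainly outside hepatocytes, 4 rose (Plat, Plaur, Serpina5 and Thbd) and 1 fell (Tfpi2), with a median of 0.23, beside 25.6% of all genes higher and 13.5% lower. Plat and Plaur are among the 4 although they passed the floor only through the groups where they are high, so this count says nothing particular about these genes. Of the 7 vitamin K dependent members, F2, F7, F9, F10, Proc and Proz fell and Pros1 did not pass, with a median of -1.49. In bulk tissue, fewer cells of a type and less RNA per cell cannot be told apart.

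Markers of the producing cells moved in part with these groups. The 15 hepatocyte markers other than Alb summed to an FPKM of 22055 to 28598 in C 8w, 29790 and 15998 in tumors and 16822 to 19305 after severe injury. Of 16 hepatocyte markers tested, Alb included, 6 were lower and 3 higher after severe injury than in C 8w, and 12 differences were negative. The shares of all genes were 13.5% lower and 25.6% higher. The 3 higher were Alb, listed at 0 in C 8w and tumors, Ass1, with 38.6% of its windows in another gene, and Apoa1. The 12 endothelial markers summed to 73.5 to 78.4 in C 8w, 44.4 and 47.1 in tumors and 36.2 to 59.2 after severe injury. Against C 8w, 4 of these were lower and 1 higher after severe injury, beside the same shares of all genes. Of the 12 differences, 9 were negative. The 13 macrophage markers summed to 272 to 321 in C 8w, 238 and 276 in tumors and 218 to 680.1 after severe injury, 10 bile duct markers to 14.8 to 22.01, 39.9 and 360.4, and 46.3 to 51.9, and 12 stellate and fibroblast markers to 107 to 120.2, 94.7 and 121, and 104 to 177. The 7 platelet markers summed to at most 2.39 in any sample, with Gp9 at 0 in tumors and severe injury and Tubb1 and Treml1 at 0 in C 8w. The 7 liver carcinoma and oncofetal markers summed to 129 to 192 in C 8w, 1163 and 728 in tumors and 1400.4 to 1836 after severe injury, with 4 of 7 higher against C 8w, among them Afp, alpha-fetoprotein. Afp alone was at 1147 to 1533 after severe injury, and Spp1 alone gave 310.7 of the bile duct sum of 360.4. These sums thus rest mostly on single genes. The 10 T and B cell markers summed to 2.07 to 3.31, 3.64 and 2.18, and 0.621 to 1.63, with none at the floor, and 8 neutrophil markers to 4.20 to 15.6, 13.8 and 5.05, and 9.52 to 11.8. The part of these cells in the members' differences was not tested.

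The 2 tumor samples differed from each other, and most members followed the same direction between them. Of 31 members, 25 were higher in replicate 2 than in replicate 3, among them 18 of the 22 made by hepatocytes, with a median log2 difference of 0.35 over the members, beside 39.0% of all genes tested higher in replicate 2 and a median of -0.11 over them. Cpb2 (1.46), Proz (1.25), Serpind1 (1.12) and F10 (1.02) were at least 1 higher in replicate 2, and F3 was 1.29 lower there, beside 6.95% of all genes tested that differed by at least 1 in either direction. Hepatocyte markers other than Alb summed to 29790 in replicate 2 and 15998 in replicate 3, and bile duct markers to 39.9 and 360.4. Spp1 alone gave 22.2 and 310.7 of the latter, and Cldn4 went the other way, at 4.37 and 1.62. The part of either marker list in the members' values was not tested. Across groups, the median range of a member between samples was 0.25 in C 8w, 0.45 in tumors and 0.45 after severe injury on the log2 scale, beside 0.20, 0.29 and 0.29 over all genes.

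As a share of all FPKM the members took 1.26% to 1.40% in C 8w, 1.49% and 1.84% in tumors and 0.756% to 0.938% after severe injury. Among the members, Fgb, Fga, Hrg, Plg and Fgg had the highest mean listed FPKM in C 8w, from 603 for Fgb down to 432 for Fgg, followed by Kng1 and F2. After severe injury the mean of Fgb was 659.6 ± 38.0, that of Fga 551 ± 38.6 and that of Cpb2 472 ± 107 (SD, n = 3), and Cpb2, which had been below Plg, Hrg, Fgg, Kng1 and F2 in every C 8w sample, was above all of these in every severe injury sample.

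A further 47 genes that serve these proteins (vitamin K enzymes, secretion and clearance receptors, thrombin and protein C receptors, further inhibitors, plasminogen receptors and platelet genes) had 33 tested. Against C 8w, 14 of these rose and 10 fell after severe injury, beside 25.6% and 13.5% of all genes, with a median of 0.13 over both these genes and all genes. The 14 include F2rl1 and Serpine2, which were under an FPKM of 1 in all C 8w samples and reached the floor only through other groups. Procr, the endothelial protein C receptor, was at 1.07, 1.23 and 1.39 in C 8w, 7.93 and 1.24 in tumors, and 21.7, 17.6 and 17.9 after severe injury, and rose by 3.17 against C 8w (SE 0.41, limma adjusted p = 6.53e-04). Like Thbd, it exceeded every other sample in each severe injury sample.

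Hgfac, a protease related to factor XII that activates hepatocyte growth factor, was at 24.0, 19.5 and 15.96 in C 8w, 52.4 and 8.15 in tumors, and 2.01, 1.54 and 1.62 after severe injury, and fell by 2.92 against C 8w (SE 0.53, limma adjusted p = 0.00334) and by 3.03 against tumors. Its tumor samples lay far apart, on either side of C 8w, and the dependence of these further genes on single samples is not reported here. Eno1, a glycolytic enzyme that binds plasminogen at cell surfaces, rose by 2.41 against C 8w and by 2.48 against tumors, with 26.0% of its windows in another gene.

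Between tumors and C 8w, 6 of the 33 were higher and 2 lower, beside 13.1% and 6.90% of all genes. Anxa2, which binds Plat and plasminogen at cell surfaces, was at 5.19, 5.09 and 7.67 in C 8w and 38.8 and 32.7 in tumors, a difference of 2.41 (SE 0.17, limma adjusted p = 3.09e-04). It moved in the same direction as Plaur and Plat there. Serpinb6a, an intracellular protease inhibitor with 25.1% of its windows in another gene, was 1.65 higher, Habp2, a plasma protease that can activate factor VII, 1.19 higher, and F2rl1, protease-activated receptor 2, 1.08 higher. F2rl1 is among the 6 although it was under an FPKM of 1 in all C 8w samples and reached the floor only through the other groups. Against tumors, severe injury had 6 of the 33 higher and 7 lower, shares close to the 18.1% and 16.1% of all genes, among them Habp2 at -2.76 and Procr at 2.16. The tumor samples of Procr lay far apart, at 7.93 and 1.24, so its difference depends on the sample. Ggcx, the carboxylase of the vitamin K dependent factors, was named after its values were seen: it was at 15.7, 17.6 and 15.7 in C 8w, 16.1 and 18.1 in tumors, and 5.66, 9.34 and 8.74 after severe injury, and fell by 0.98 against C 8w (SE 0.17, limma adjusted p = 0.00258). Of the 5 vitamin K genes tested, Ggcx included, Calu and Vkorc1l1 rose in that comparison, by 0.78 and 0.46, Vkorc1 and Gas6 did not pass, and the median was -0.13.

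How firmly a call stood differed between members. After severe injury against C 8w, Plat, Plaur, Serpina5, Thbd, F7, Serpind1, Proz, F9, F12, Tfpi2, F2, F13b, Hrg, Proc and Serpinf2 passed in all 19 alternatives of scaling, filter, model or samples computed for them, and Plg in all 18. These counts leave out the limit of 1 on the log2 difference, under which the falls of F5, F10, Plg, Kng1, Serpinc1 and Serpinf2 were no longer counted against C 8w, those of F10, F13b, Kng1, Kng2 and Serpinc1 against tumors, and the higher values of F12 and Kng2 in tumors. Serpinc1 was lost without C 8w replicate 1, Kng1 without C 8w replicate 1 or severe injury replicate 2, and F5 without C 8w replicate 1 or 2 or severe injury replicate 1 or 3. F10 was lost without C 8w replicate 1 or 3 or severe injury replicate 1 or 3, and Fgg without any one C 8w replicate or severe injury replicate 1 or 3, with adjusted p up to 0.0912 and 0.101, and both were also lost with no filter on low values. F8, Kng2 and Cpb2 passed when either tumor sample was left out and in a fit of only the 2 groups. F8 also passed without severe injury replicate 2 and after quantile scaling, and F8 and Kng2 after median-ratio scaling. Cpb2 also passed after scaling to equal totals over genes with at most 2% of shared sequence.

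In tumors against C 8w, Plat and Plaur passed in all 19 alternatives without a replicate block, whereas F3 and F5 passed in 11, F12 in 10 and Kng2 in 13. Plat and Plaur entered the test only through the groups where they were high. Their counts against C 8w, here and after severe injury, are thus not comparable with those of other members. Leaving out any 1 of the C 8w samples ended the call of F3, F5 and Kng2, leaving out tumor replicate 3 ended that of F3, F12 and Kng2, and leaving out tumor replicate 2 that of F5 and F12. F12 was also lost without C 8w replicate 2 or 3, F3 without severe injury replicate 1 or 3, and F5 and F12 without severe injury replicate 3. Without tumor replicate 2, F13b, Serpinc1 and Cpb2 were called lower, without tumor replicate 3, Fga and F7 were called higher, and Serpina5 and Hrg passed without severe injury replicate 2 and 1 respectively. After severe injury against tumors, F10 passed in 8 of 19 alternatives, Serpinc1 in 13 of 18, Cpb2 in 14 of 19 and F13b in 15 of 19. Leaving out tumor replicate 2 ended the calls of F10, Serpinc1 and F13b and made F3 pass, and leaving out tumor replicate 3 ended that of Cpb2 and made Fga and F11 pass. Without tumor replicate 2 the differences were -0.32 for F10, -0.40 for Serpinc1 and -0.41 for F13b, and without tumor replicate 3 that of Cpb2 was 0.58. Each severe injury replicate left out, and each C 8w replicate, also ended the call of F10, severe injury replicate 3 those of Serpinc1, Cpb2 and F13b, replicate 2 that of F13b and replicate 1 that of Serpinc1.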

How the data were processed

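Total RNA of 8 Fah-/- samples was made into Illumina TruSeq libraries and sequenced. The deposited table holds FPKM values, in which the authors divided the fragments of a gene by its length and by library size. Per the submitters' processing notes, Bowtie 0.12.2 and genome build mm8 were used, and the quantifier and annotation are not given in the sources used here. Values were not whole multiples of a read, so counts could not be recovered, and the depth and counting error of each sample are unknown. The table held 0 columns of other samples.

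Samples were grouped by their treatment labels. Ensembl identifiers were matched to symbols for 22314 of 22504 rows. Genes reaching an FPKM of 1 in 2 or more of 8 samples were compared as log2(FPKM + 1), with a pseudocount of 1 and no further scaling. The 3 groups entered a single limma 3.58.1 model (R 4.3.3), whose eBayes step used an intensity trend. The test was two-sided with Benjamini-Hochberg adjustment over all 11007 genes and a threshold of 0.05, and was tested on simulated data. The members and gene lists were chosen with earlier results of these data known.

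Shared sequence was measured with Python 3.11.15 by cutting GENCODE M21 transcripts into windows of 50 bases and counting, for each gene, the percentage found in another gene on either strand. The annotation behind the deposited table may differ from it. Of the 31 members tested, 25 had at most 2% and 6 more. Promoter sequences came from RefSeq (GRCm38.p6) and were not used with the coordinates of the files.

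Values in every sample were given for members that passed in a comparison and for the fibrinogen chains and kininogens, standard errors for at most 10 called members per comparison with the largest differences, and at most 4 further pathway genes per comparison were named. Alternatives were other pseudocounts, floors and scalings, each sample left out, no trend, fits of the compared groups alone, a log2 limit of 1, genes with at most 2% shared sequence and a replicate block. The crossed pairing and scaling over genes of little shared sequence were added after seeing the data. The results of some genes on the lists are not reported here.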

Additional observations from a re-analysis of the deposited data

How the results depend on the processing

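No member's difference that passed the test reversed under any alternative run. Between tumors and C 8w, 6 members were higher: 3 with no filter, 10 after quantile scaling, 3 in a fit of only the 2 groups, and 2 to 7 when 1 sample was left out. There 0 members were lower: 1 after median-ratio or quantile scaling, 1 in eBayes without a trend, and 0 to 3 when 1 sample was left out. Calls over all genes fell from 2199 to 640 with a log2 limit of 1 and to 1395 among genes of at most 2% shared sequence (fewer genes), and ran from 891 to 3978 when 1 sample was left out.

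Between severe injury and C 8w, 17 members were lower, 11 with a log2 limit of 1 and 12 to 19 when 1 sample was left out, and 4 to 5 were then higher. Over all genes 4305 calls became 1260 with that limit and 2318 at 2% shared sequence, and ran from 2676 to 5511. Between severe injury and tumors, 17 members were lower, 11 at 2% shared sequence and 14 to 19 when 1 sample was left out, and 3 to 4 were then higher. Over all genes 3764 calls became 2344 in a fit of only the 2 groups, 1378 with the log2 limit and 1978 at 2% shared sequence, and ran from 2866 to 4652. Apart from the sets of fewer genes or samples, the cause was not tested.

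For the replicate numbers 2 and 3 of C 8w and tumors, the correlation of deviations was -0.18 over 11007 genes. Each group gave only the difference between numbers 3 and 2, so whether the numbers pair the samples cannot be decided. With the number as a replicate block, 1 member and 169 genes were called, and with crossed numbers, added after seeing the data, 0 members and 2 genes. When a sample of tumors is left out, the lone sample is assumed to vary like the other groups. FPKM without depth leaves the counting error of low members such as Tfpi, F8 and Vwf unknown.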
